A study of Mus musculus with 89 samples.

Results

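Lypd8, Nlrp6, Pycard, Casp1, Casp4, Il18 and Gsdmd were followed along the crypt-villus axis of the mouse jejunum and across its cell types. These 7 genes were listed by symbol, with no measured value in the rule, and all 7 were found among the 27538 genes of the clump table and among the 23379 genes of the single-cell table. The level of a gene is given in CPM, the UMIs of a gene scaled to a total of 1000000 UMIs for each sum, where a UMI is the tag that marks 1 captured mRNA molecule and a sum pools the wells of 1 mouse and 1 zone or cell type.

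LYPD8 is a GPI-anchored protein of the LY6/uPAR family that epithelial cells shed into the gut lumen, where it binds flagellated bacteria and keeps them away from the epithelium. The other members belong to the inflammasome pathway. NLRP6 is a NOD-like receptor of the intestinal epithelium, PYCARD (also named ASC) is the adaptor that links such sensors to a caspase, and caspase-1 then cuts the precursor of the cytokine IL-18 and the pore-forming protein gasdermin D. Caspase-4, known in mice also as caspase-11, responds to bacterial lipopolysaccharide in the cytosol and cuts gasdermin D as well. Released IL-18 acts on neighbouring lymphocytes and epithelial cells, and gasdermin D pores let cytokines out or end in a lytic cell death called pyroptosis.

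All 7 genes are protein coding in the GRCm38 annotation. Lypd8 lies on the plus strand at chr11:58379043-58390728 and Nlrp6 on the plus strand at chr7:140920902-140929192. Pycard is on the minus strand at chr7:127989708-127993867. Casp1, at chr9:5298517-5307265, and Casp4, at chr9:5308828-5336783, are neighbours on the plus strand of the same chromosome as Il18, at chr9:50554827-50581840. Gsdmd lies at chr15:75862327-75867408 on the plus strand. Il18 overlaps Bco2 and Tex12, and Pycard overlaps Gm45205, each on the other strand, and the study's counting was set to the strand of the library.

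The 250 bases before the RefSeq start site (GRCm38.p6) are shown for 3 genes of unlike pattern, Lypd8, which was highest in goblet-like cells, Nlrp6, which had 3 UMIs or fewer in the goblet-like, enteroendocrine-like and tuft-like sums of any mouse, and Casp4, which was lowest on average in crypt clumps. Capitals mark a searched motif. The Lypd8 window is chr11:58378782-58379031, that of Nlrp6 is chr7:140920652-140920901 and that of Casp4 is chr9:5308599-5308848, all on the plus strand.
Lypd8: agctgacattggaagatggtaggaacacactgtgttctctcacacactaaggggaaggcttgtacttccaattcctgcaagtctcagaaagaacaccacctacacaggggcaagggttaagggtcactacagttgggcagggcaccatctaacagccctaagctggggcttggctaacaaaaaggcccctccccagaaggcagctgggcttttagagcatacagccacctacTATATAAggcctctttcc
Nlrp6: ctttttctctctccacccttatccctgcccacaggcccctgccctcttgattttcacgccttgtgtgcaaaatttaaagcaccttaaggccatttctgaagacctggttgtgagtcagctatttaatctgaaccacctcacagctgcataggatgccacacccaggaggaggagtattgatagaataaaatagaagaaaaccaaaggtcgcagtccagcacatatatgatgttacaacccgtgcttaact
Casp4: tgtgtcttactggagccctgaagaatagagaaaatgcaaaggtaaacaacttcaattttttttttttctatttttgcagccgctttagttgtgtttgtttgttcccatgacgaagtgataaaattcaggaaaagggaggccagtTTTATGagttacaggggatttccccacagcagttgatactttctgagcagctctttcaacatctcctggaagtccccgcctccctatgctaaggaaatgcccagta

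The motifs searched on both strands were TATANAA for the TATA box (in 10.4% of all 32851 windows of this length), AGATAA for the GATA factors (9.99%), TTTATG for the CDX factors (10.8%), CAAAGT for HNF4 (12.6%), TTCNNNGAA for the GAS element (7.02%) and the core of the interferon-stimulated response element (2.98%). None of these patterns contains another. The Lypd8 window held a TATA box that begins 18 bases before the start and the Casp4 window a CDX match that begins 106 bases before it. A second Lypd8 window, at another annotated start, held a GATA match, and the Il18 window held a pair of TATA box matches, 201 and 136 bases before the start. The Nlrp6, Pycard and Casp1 windows held none of these letters. The Lypd8 window had 0 CpG dinucleotides and that of Nlrp6 had 3, and 37.8% of all windows had 3 or fewer. A match is a string of letters, and no binding was measured here.

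The samples are wells of C57BL/6 male mice fed regular chow, labelled 3 months old, with no treatment or allele that sets groups apart. Epithelium was released with EDTA, either gently into clumps of attached cells, which were sorted by DNA content (4n, taken as pairs, from mice 1 to 5, above 4n from mice 1, 4 and 5, and above 2n from mouse 6), or further into single cells of 4 mice that are numbered apart, of which 3 plates of mouse 2 are labelled 4 months. Wells were read by MARS-seq, a plate-based method that counts mRNA by its 3' end. Clumps give place and single cells give type, so a clump shows where in the epithelium a gene is expressed and a single cell shows by which kind of cell. The single-cell gates were CD45- Epcam+, with CD24+ added for enteroendocrine cells, and Epcam+ CD24+ without the CD45 gate for tuft cells.

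A total of 5883 clumps of mice 1 to 5 were placed in 3 zones by 70 landmark genes, none of them a member, which gave 3251 crypt, 1821 mid-villus and 811 villus tip clumps. Median depth was, in this order, 4878, 1811 and 1346 UMIs per clump, and the sums held 346613 to 18868631, 197189 to 2764557 and 76801 to 757892 UMIs. Of 5199 single cells, 2486 were enterocyte-like, 208 goblet-like, 248 enteroendocrine-like, 186 tuft-like and 1652 lymphocyte-like by marker genes, and 419 cells in 2 clusters stayed unnamed. The lymphocyte-like cells, led by Gzma, Ccl5 and Gzmb, are cells that a CD45- gate would remove.

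Between the crypt and the villus tip the members split into 2 directions. Lypd8, Nlrp6, Pycard, Casp1 and Il18 were lower in clumps of the villus tip than in those of the crypt, and Gsdmd and Casp4 were higher. All 7 passed the test there (edgeR's quasi-likelihood test on sums per mouse, Benjamini-Hochberg over all genes, adjusted p under 0.05), in a comparison where 54.4% of the 6984 genes tested passed it. Their median difference was −1.43 on the log2 scale, against −0.07 over all genes tested. Between mid-villus and crypt 3 of the 7 passed (Pycard lower, Gsdmd and Casp4 higher, background 42.5%), and between villus tip and mid-villus 3 passed (Lypd8, Nlrp6 and Il18, all lower, background 14.7%).

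Lypd8, the secreted barrier protein, stood in the crypt clumps of mice 1 to 5 at 1756, 2166, 2353, 1942 and 2533 CPM, in mid-villus clumps at 1115, 1299.9, 1505, 2484 and 1805 CPM, and in villus tip clumps at 795, 211, 620.1, 967 and 716 CPM. The tip was below the other zones in all 5 mice with no overlap, while crypt and mid-villus levels overlapped. The fitted difference between tip and crypt was −1.43 ± 0.37 on the log2 scale (SE, adjusted p = 0.00283, 2.69-fold lower) and that between tip and mid-villus −1.20 ± 0.37 (adjusted p = 0.0315), and mid-villus differed from crypt by −0.22 ± 0.36 (adjusted p = 0.654). Where clumps with marker UMIs of a secretory or immune type were left out, the difference between tip and crypt was −2.31, and where zones were given by the largest landmark sum it was −0.79 and no longer passed (adjusted p = 0.0839). The call between tip and mid-villus was lost under 6 of 16 alternatives, all with the same direction. These were the fits without mouse 1, 2, 3 or 5 (adjusted p = 0.081, 0.148, 0.126 and 0.0525), without the filter on low counts (0.0522) and with zones by the largest landmark sum (0.403).

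Nlrp6, the sensor, was at 181, 271, 201, 185 and 86.6 CPM in crypt clumps of mice 1 to 5 and at 165, 149.8, 110.0, 176 and 81.1 CPM in mid-villus clumps. In villus tip clumps it was at 41.3, 19.6, 19.8, 28.4 and 0 CPM, where the 0 of mouse 5 stands for 0 of 76801 UMIs and allows up to 39.1 CPM (3 UMIs, counting error only). Each mouse had its lowest value at the tip, and the ranges did not overlap. The fitted difference was −2.62 ± 0.35 between tip and crypt (adjusted p = 4.6e-06) and −2.38 ± 0.35 between tip and mid-villus (adjusted p = 0.000185). Mid-villus and crypt differed by −0.24 ± 0.28 (adjusted p = 0.527). With zones by the largest landmark sum the differences from tip were −1.17 (crypt) and −0.88 (mid-villus), and the latter no longer passed (adjusted p = 0.0763), while with background subtracted they were −7.66 and −7.19. Negative counts were set to 0 in that subtraction, and the tip sums held 35 Nlrp6 UMIs in all before it, so the size of these differences is uncertain.

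Pycard, the adaptor, had the lowest fitted difference of the members between tip and crypt, except with background subtracted, where that of Nlrp6 was lower (−7.66 against −5.23). It was at 867, 849, 847, 881 and 591 CPM in crypt clumps and at 141, 67.6, 116, 302 and 91.3 CPM in mid-villus clumps. Villus tip clumps held 23.0, 19.6, 39.6, 208 and 91.1 CPM, so that mice 4 and 5 were the high ones at the tip and the ranges of tip and mid-villus overlapped. The crypt range lay above both. Pycard differed by −2.34 ± 0.46 between mid-villus and crypt clumps (adjusted p = 0.000393) and by −3.31 ± 0.52 between tip and crypt (adjusted p = 2.49e-05, 9.93-fold lower), whereas tip and mid-villus differed by −0.97 ± 0.50 (adjusted p = 0.204), and by −1.98 with pairs only and −1.31 without mouse 4, both past the threshold (adjusted p = 0.0362 and 0.0321). With pairs only, the tip sums of mice 4 and 5 held 6 and 11 clumps, or 4758 and 10038 UMIs.

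The caspases differed in direction. Casp1, the protease that matures IL-18, was at 224, 271, 271, 82.1 and 113 CPM in crypt, 215, 194, 212, 114 and 25.4 CPM in mid-villus and 64.3, 41.6, 76.5, 94.8 and 0 CPM in villus tip clumps, the 0 again being 0 of 76801 UMIs. Its tip value was below its crypt value in 4 of 5 mice, mouse 4 being the exception, and the fitted difference was −1.35 ± 0.46 (adjusted p = 0.0166). It no longer passed without mouse 1, 2 or 3, where the adjusted p reached 0.0723.

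Casp4, the cytosolic lipopolysaccharide sensor, was at 59.6, 52.9, 59.6, 19.1 and 43.3 CPM in crypt clumps and higher in mid-villus clumps of all 5 mice, at 114, 63.1, 129, 45.3 and 71.0 CPM. At the villus tip it was at 96.5, 63.7, 128, 28.4 and 26.0 CPM, above the crypt level of the same mouse in 4 of 5 mice, and the last 2 of these values rest on 3 and 2 UMIs. The fitted differences from crypt were 1.06 ± 0.38 in mid-villus (adjusted p = 0.028) and 1.10 ± 0.40 at the tip (adjusted p = 0.024), and the ranges of the zones overlapped. Each of these calls was lost under 9 of 16 alternatives, all with the same direction, with adjusted p up to 0.441 and 0.334.

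Il18, the cytokine, was at 127, 181, 247, 25.1 and 104 CPM in crypt and at 122, 171, 165, 141 and 45.6 CPM in mid-villus clumps, and at 18.4, 19.6, 34.3, 9.48 and 13.0 CPM at the villus tip, which came to 40 UMIs over the 5 mice. The tip was lowest in all 5 mice, and tip and crypt ranges overlapped through the low crypt value of mouse 4. The fitted difference was −2.22 ± 0.50 between tip and crypt (adjusted p = 0.000928) and −2.33 ± 0.50 between tip and mid-villus (adjusted p = 0.00444, and 0.0564 with zones by the largest landmark sum). Over the 16 alternatives these differences ranged from −4.45 to −1.22 and from −4.39 to −1.39. Mid-villus and crypt differed by 0.11 ± 0.40 (adjusted p = 0.853), and this sign changed under several alternatives.

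Gsdmd, the pore protein at the end of the pathway, was higher in the villus. It was at 66.8, 81.9, 109, 34.6 and 49.0 CPM in crypt clumps, at 423, 478, 502, 326 and 294 CPM in mid-villus clumps and at 450.1, 580.5, 548, 417 and 286 CPM in villus tip clumps. The crypt range lay far below the others, and the others overlapped. Gsdmd differed from its crypt level by 2.77 ± 0.31 in mid-villus clumps (adjusted p = 2.45e-06) and by 3.15 ± 0.32 at the tip (adjusted p = 2.3e-07, 8.85-fold higher), and tip and mid-villus differed by 0.38 ± 0.29 (adjusted p = 0.421).

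**Figure D1:**
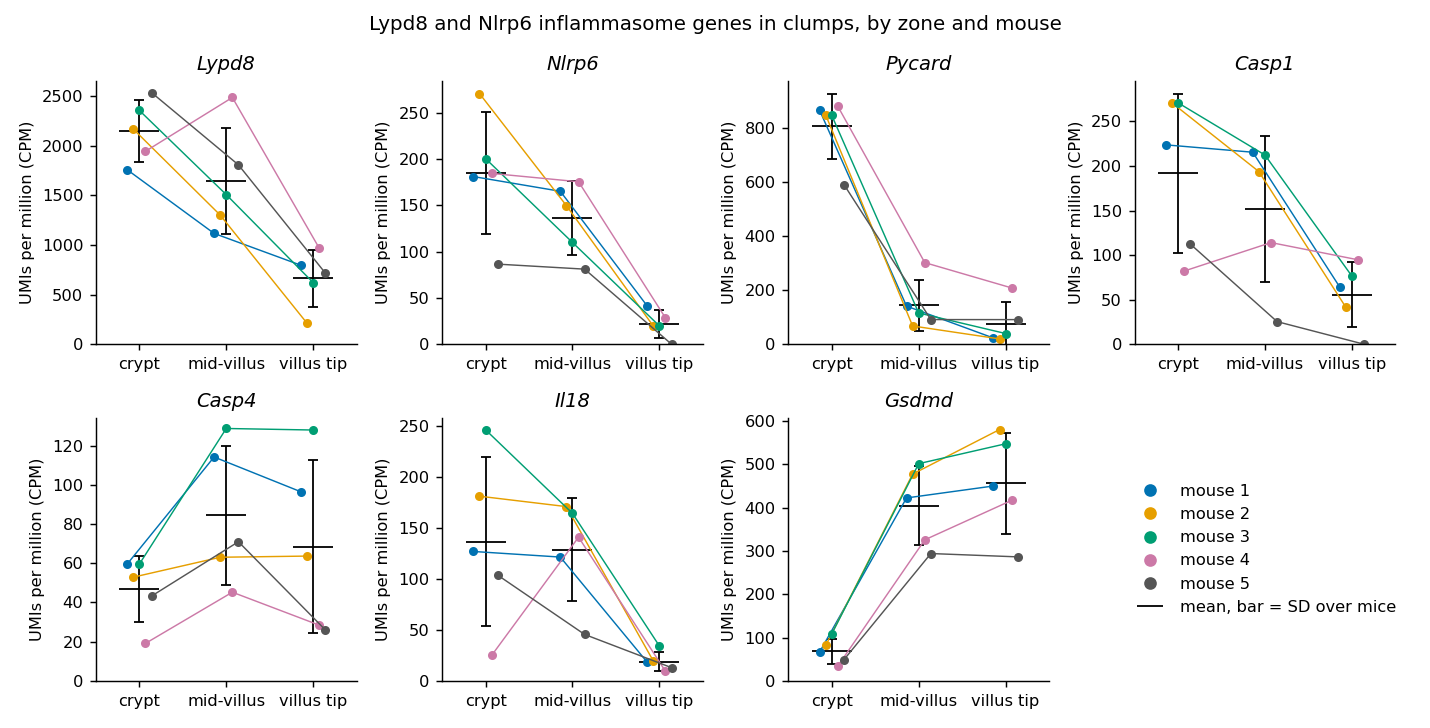
Levels in CPM of the 7 genes (y axis, linear from 0, 1 scale per gene) in crypt, mid-villus and villus tip clumps, with 1 point and line per mouse (mice 1 to 5) and the mean with its SD in black. Tip values of Lypd8, Nlrp6, Pycard and Il18 lie below the crypt value of their mouse 5 times of 5, those of Casp1 4 of 5, and those of Gsdmd above it 5 of 5.

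The opposite course of the adaptor and the pore protein changed their ratio within the same clumps. There were 0.0392 to 0.128 Gsdmd UMIs per Pycard UMI in the crypt sums of the 5 mice, 1.08 to 7.07 in mid-villus sums and 2 to 29.6 in villus tip sums, where the counts of Pycard were 5 to 30 UMIs. The crypt range of the ratio did not overlap those of the villus zones. In single enterocyte-like cells the ratio was 0.129 to 0.299 in the crypt and 2.89 to 14 in mid-villus sums. The 14 of mouse 1 rests on 3 Pycard UMIs, and the next value was 4.27. In tip sums the ratio was 15.8 to 405, on 1 to 16 Pycard UMIs.

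The mouse as a block, which pairs the zones of 1 animal, left the calls between villus tip and crypt at 7 and those between mid-villus and crypt at 3. Between villus tip and mid-villus it raised the clump calls from 3 to 5, adding Casp1 and Pycard, and those in single enterocyte-like cells from 5 to 7, adding Casp4 and Gsdmd, with fitted differences above 0. Their mean levels do not share that direction. Casp4 was at 39.9 CPM at the tip and 42.7 CPM in mid-villus cells, and Gsdmd at 204 and 246 CPM. Of 4 mice, Casp4 was higher at the tip in 3 and Gsdmd in 2. With the sums scaled by total UMIs alone and no block, the direction of Gsdmd turned (−0.25, adjusted p = 0.548) and the difference of Casp4 was 0.09 (adjusted p = 0.892).

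Other cell types also changed along the zones. The summed level of 12 goblet markers was 3148 to 5905 CPM in crypt sums and 7266 to 35179 CPM in villus tip sums, all 12 with UMIs in both. The Paneth list (12 markers) ran from 93.2 to 20789 CPM in the crypt and from 132 to 1223 CPM at the tip, and the list for stem and dividing cells (14 markers) from 597 to 1501 CPM and from 73.5 to 294 CPM. Of 17 lymphocyte markers, 16 had UMIs in crypt sums (4.77 to 436 CPM in all) and 8 in tip sums (0 to 52.1 CPM), where Ptprc, Cd3e, Cd3g and Cd3d were at 0. Of 11 myeloid markers, 10 had UMIs in crypt sums (54.8 to 464 CPM) and 5 in tip sums (39.1 to 211 CPM), where Csf1r, Cd68 and Fcer1g were at 0. Without the clumps that held at least 10 UMIs of a secretory list or 2 of an immune list, 6 of the 7 members still passed between tip and crypt, and Casp4, at 1.01 ± 0.45, did not (adjusted p = 0.0598). Stem and dividing markers were no part of that filter. In summed wells, fewer cells of a type and less RNA per cell cannot be told apart.

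The axis was cut more finely to see where between crypt and tip each gene was highest. Each clump was given the share of its tip landmark UMIs among tip and crypt landmark UMIs, and this axis was split into 5 equal parts that held 2821, 582, 454, 581 and 1445 clumps. The values are a description and were not tested.

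Lypd8 was at 1956 ± 179 CPM (SD, n = 5 mice) in part 1, the crypt end, at 2961 ± 423 in part 2, at 2411 ± 827 and 1208 ± 435 in parts 3 and 4 and at 580 ± 178 CPM in part 5. Its highest value was in part 2 in 4 of 5 mice and in part 3 in mouse 5. Nlrp6 had the same order of its ends, with 168 ± 59.1, 241 ± 99.4, 173 ± 29.0, 139 ± 47.9 and 45.0 ± 24.8 CPM, and was highest in part 2 in 4 of 5 mice.

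Il18 (108 ± 59.0, 239 ± 121, 188 ± 92.8, 119 ± 71.4 and 33.5 ± 17.4 CPM) and Casp1 (179 ± 81.6, 234 ± 113, 160.5 ± 77.8, 166 ± 101 and 78.9 ± 44.9 CPM) were highest in part 2 in 5 of 5 mice. Pycard was highest at the crypt end in 5 of 5 mice and lower in each further part, with 866 ± 124, 445 ± 64.5, 209 ± 72.2, 91.7 ± 76.3 and 55.3 ± 46.8 CPM.

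Gsdmd stood at 54.0 ± 18.9, 218 ± 39.1, 300.5 ± 127, 409 ± 66.5 and 456 ± 129 CPM and was highest in part 5 in 4 of 5 mice. Casp4 was lowest at the crypt end, at 40.9 ± 17.6 CPM, and then stood between 73.1 and 82.8 CPM, with no part that was highest in most mice. For Casp4 with pairs only, part 5 was highest in 3 of 5 mice, and with 3 parts in place of 5 the tip end was highest in 3 of 5. With 3 parts in place of 5, the highest mean of Lypd8 was 2286 CPM, again in the part after the crypt end, and that of Casp1 moved to the crypt end. With these 3 parts Nlrp6 was highest in part 2 in 2 of 5 mice and at the crypt end in the other 3. With pairs only and 5 parts, part 2 was highest in 3 of 5 mice for Nlrp6, in 3 of 5 for Casp1 and in 4 of 5 for Il18, and the highest part of Gsdmd was part 5 in 3 of 5.

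**Figure D2:**
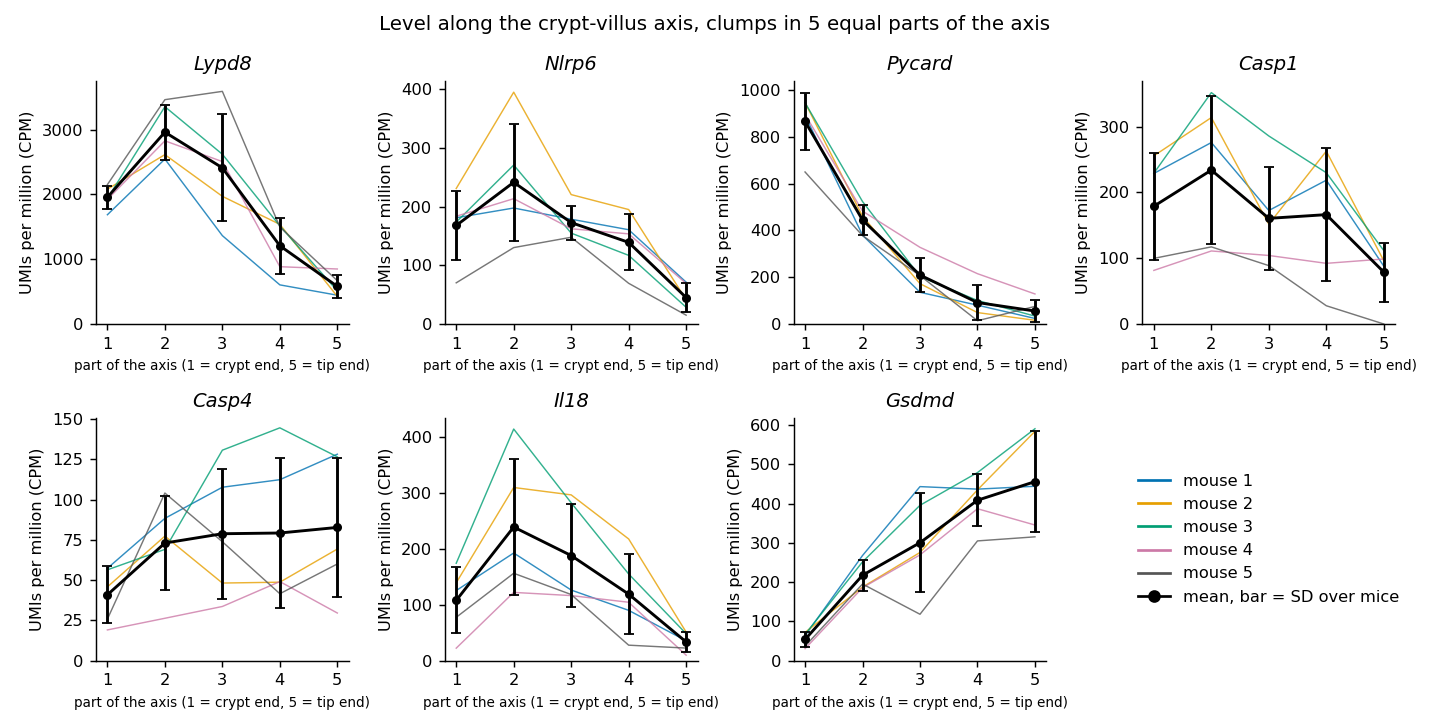
Levels in CPM (y axis, linear from 0) in 5 equal parts of the landmark axis from the crypt end (1) to the tip end (5), with 1 coloured line per mouse and the mean with its SD in black. Lypd8, Nlrp6, Il18 and Casp1 peak in part 2 on average, Pycard in part 1 and Gsdmd in part 5.

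Single enterocyte-like cells, which have no neighbour in the well and come from mice numbered apart, were placed in zones by the same landmarks, 325 cells in the crypt zone (mice 2 to 4), 699 in mid-villus and 1409 at the villus tip (mice 1 to 4). At the tip Lypd8, Nlrp6, Pycard, Casp1 and Il18 were lower than in the crypt zone and Gsdmd and Casp4 higher, each in the direction it had in clumps. All 7 passed between tip and crypt, where 59.0% of genes tested passed, 3 passed between mid-villus and crypt (Pycard and Lypd8 lower, Gsdmd higher, background 28.3%), and 5 passed between tip and mid-villus, all lower (background 36.8%). Markers of other cells differed between these zones too. The summed lymphocyte list (18 markers, of which 17, 15 and 18 had UMIs) was at 216 to 428 CPM in crypt-zone, 13.3 to 205 in mid-villus and 9.29 to 249 CPM in tip sums. The stem and dividing list (14 markers, of which 13, 12 and 12 had UMIs) was at 223 to 370, 50.4 to 74.6 and 28.3 to 59.1 CPM. Their part in the result was not tested.

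Lypd8 was at 1223, 1695 and 1588 CPM in crypt-zone cells of mice 2 to 4, at 697, 612, 725 and 539.7 CPM in mid-villus cells of mice 1 to 4 and at 45.0, 46.4, 111 and 58.3 CPM in tip cells. The 3 zones did not overlap. The difference between tip and crypt was −3.60 ± 0.32 (adjusted p = 3.31e-08) and that between mid-villus and crypt −1.04 ± 0.30 (adjusted p = 0.0118), the latter not passing without mouse 4 or without a filter on low counts. In clumps the fitted difference between tip and crypt was −1.43, and the difference between the tables was not tested.

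Pycard stood at 358, 354 and 368 CPM in crypt-zone cells, at 25.5, 58.1, 44.9 and 63.8 CPM in mid-villus cells and at 0.464, 4.64, 5.37 and 16.1 CPM in tip cells, the latter being 1, 3, 3 and 16 UMIs. It showed the largest fitted difference of the members, −5.00 ± 0.43 (adjusted p = 2.35e-08). Nlrp6 was at 155, 129 and 144 CPM, then 68.0, 101, 102 and 103 CPM, then 5.11, 21.6, 39.4 and 19.1 CPM, and Il18 at 87.8, 107 and 75.8 CPM, then 34.0, 54.7, 86.6 and 63.8 CPM, then 2.79, 12.4, 16.1 and 11.1 CPM. Both had tip values under all others (tip against crypt −2.0 ± 0.38, adjusted p = 0.000187, and −2.42 ± 0.42, adjusted p = 5.77e-05).

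Casp1 was at 182, 111 and 75.8 CPM in crypt-zone cells, at 136, 74.6, 96.4 and 67.2 CPM in mid-villus cells and at 6.96, 17.0, 19.7 and 30.1 CPM in tip cells. The tip was below both (−1.88 ± 0.39 against crypt, adjusted p = 0.000403), and the other zones overlapped. Gsdmd was at 60.8, 45.7 and 109.9 CPM in crypt-zone cells, below every mid-villus value (357, 168, 187 and 272 CPM) and every tip value (188, 179, 195 and 253 CPM), with a difference of 2.5 ± 0.34 between tip and crypt (adjusted p = 3.59e-06), and of 1.47 with scaling by total UMIs (adjusted p = 0.00277), which moved the median of all genes from 0.09 to −0.88. Casp4 held 13.5, 15.9 and 53.1 CPM, then 68.0, 23.2, 20.8 and 58.6 CPM, then 45.0, 24.7, 30.5 and 59.3 CPM. Its zones overlapped, tip exceeded crypt in each of mice 2 to 4, and the call (1.58 ± 0.49, adjusted p = 0.00909) was lost with scaling by total UMIs (0.52, adjusted p = 0.428) and without mouse 3.

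**Figure D3:**
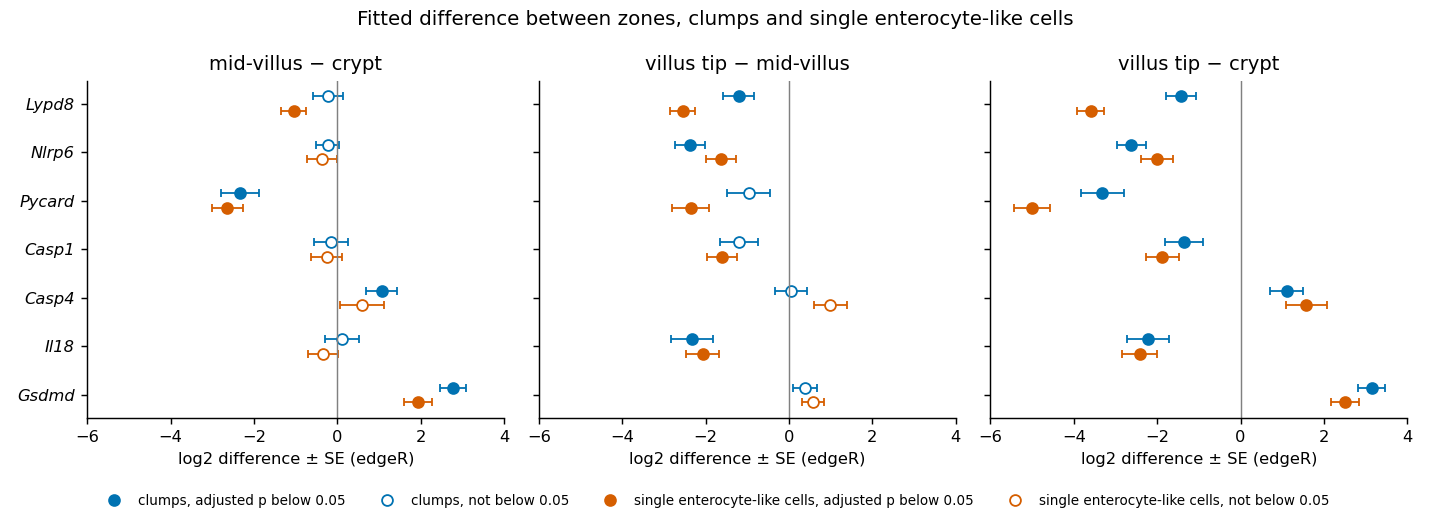
Fitted log2 difference between zones (x axis, with SE bars) for each gene in clumps (blue) and single enterocyte-like cells (orange), filled where the adjusted p of edgeR was below 0.05. Between villus tip and crypt all 14 points are filled, with Gsdmd and Casp4 to the right of 0 and the other 5 genes to the left.

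Depth differed between the zones of clumps, so every clump was also thinned to 500 UMIs. A Lypd8 UMI was then seen in 54.9% ± 6.02 (SD, n = 5 mice) of crypt, 40.7% ± 12.5 of mid-villus and 22.4% ± 13.7 of villus tip clumps, against 85.4%, 65.2% and 38.9% unthinned. For Pycard the thinned shares were 28.9% ± 5.31, 6.70% ± 6.41 and 3.07% ± 1.80, and for Gsdmd 3.24% ± 1.36, 16.8% ± 3.62 and 20.4% ± 5.37 (unthinned 20.4%, 45.6% and 44.2%). Single cells that should lack epithelial transcripts, the lymphocyte-like ones, had a Lypd8 UMI in 3.48% ± 3.19 of thinned cells, and the goblet-like ones in 72.9% ± 2.21. Before thinning, the median depth of these cells was 979 and 2082 UMIs. The wells left empty by the study were not identified here, and the 4 well positions with the lowest median UMIs over the clump plates of mice 1 to 5 stood in for them. These 160 wells, 69005 UMIs in all, held 1594 CPM of Lypd8, 144.9 of Nlrp6, 826 of Pycard, 87.0 of Casp1, 101 of Casp4, 101 of Il18 and 87.0 of Gsdmd. These lay within the crypt range of the 5 mice for 5 members, below it for Lypd8 and above it for Casp4. With that background subtracted per plate, 6 members passed between tip and crypt, without Casp4, and Lypd8 differed by −2.24.

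Among cell types, Lypd8 stood out in goblet-like cells, the mucus-secreting lineage. It was at 4854, 3479.9, 3248 and 3228 CPM in the goblet-like sums of mice 1 to 4, against 84, 413, 765 and 422 CPM in enterocyte-like sums, 339, 129.6, 319.8 and 266 CPM in enteroendocrine-like sums, 131, 240.3 and 123 CPM in tuft-like sums (mice 1 to 3) and 0, 43.9, 105 and 118 CPM in lymphocyte-like sums. Every goblet-like value lay above every value of another type, whereas in the order of means below it enterocyte-like and enteroendocrine-like, and enteroendocrine-like and tuft-like, overlapped, and every tuft-like value lay above the lymphocyte-like ones. The goblet-like values were also above the 1223 to 1695 CPM of crypt-zone enterocyte-like cells, side by side and not tested. The fitted difference from enterocyte-like sums was 2.59 ± 0.60 (adjusted p = 0.000944), 3.14 with scaling by total UMIs and 1.99 to 2.99 with 1 mouse left out, the lowest being without mouse 1.

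The enterocyte-like sum of mouse 1 held 646 villus tip cells of 690 and was the lowest of the 4 mice for Lypd8, Nlrp6, Pycard, Casp1 and Il18, and the part of this make-up in the comparisons of types was not tested. Nlrp6 stood at 8.66, 71.5, 90.0 and 62.4 CPM over mice 1 to 4, Pycard 2.60, 63.8, 108 and 80.1 CPM, Casp1 15.1, 58.2, 74.6 and 47.5 CPM and Il18 4.33, 38.6, 68.9 and 36.3 CPM. Gsdmd, at 194, 159, 148 and 235 CPM, and Casp4, at 45.9, 22.4, 21.2 and 57.6 CPM, were not low in that mouse.

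The comparisons of types shared 1 filter on low counts, which Nlrp6 passed through the enterocyte-like sums (426 UMIs), so its values in the other types are given without a test. Between goblet-like and enterocyte-like sums, where 21.2% of all genes tested passed, Gsdmd was lower besides the higher Lypd8, with 64.0, 54.2, 44.9 and 39.4 CPM (−2.81 ± 0.60, adjusted p = 0.000335). Nlrp6 had 10.7, 0, 9.98 and 0 CPM in goblet-like cells, or 3 UMIs in all, where the 0 UMIs allow up to 18.1 CPM in mouse 2 and 118 CPM in mouse 4. Pycard (32.0, 36.1, 79.8 and 197 CPM), Casp1 (64.0, 66.2, 89.8 and 118 CPM) and Casp4 (149, 78.3, 84.8 and 0 CPM) overlapped with enterocyte-like values and did not pass. Within the same mouse, CPM was higher in goblet-like sums in 4 of 4 mice for Casp1, 3 for Casp4 and 2 for Pycard. Il18, at 21.3, 18.1, 4.99 and 0 CPM, was below the count filter of this fit and was not tested in any type.

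In enteroendocrine-like cells, which secrete hormones, and in tuft-like cells, the chemosensory type, 33.4% and 24.1% of all genes tested differed from enterocyte-like cells. Few UMIs of the members were found there, and Nlrp6 (2 and 3 UMIs), Casp4 (2 and 2), Casp1 (9 and 11) and Pycard (13 and 1) are given as counts only. Gsdmd was at 37.7, 51.4, 0 and 88.5 CPM in enteroendocrine-like sums (1, 23, 0 and 1 UMIs, −3.77 ± 0.68, adjusted p = 2.1e-05) and at 74.7, 73.2 and 123 CPM in tuft-like sums (31 UMIs, −2.64 ± 0.68, adjusted p = 0.00248). Lypd8 differed by −2.27 ± 0.64 (77 UMIs, adjusted p = 0.00469) and −2.26 ± 0.69 (91 UMIs, adjusted p = 0.0114).

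With scaling by total UMIs, 1 of these 4 calls remained, that of Gsdmd in enteroendocrine-like cells (−1.94, adjusted p = 0.00801), and the other 3 differences were −1.12 for Gsdmd in tuft-like cells and −0.67 and −1.21 for Lypd8. Mouse 2 gave 218 of 248 enteroendocrine-like and 157 of 186 tuft-like cells, and without it again the enteroendocrine-like call of Gsdmd alone was left, on 2 UMIs. The Lypd8 calls were lost also without mouse 3.

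In lymphocyte-like cells, where 57.4% of all genes tested passed, 3 members were lower than in enterocyte-like cells, namely Lypd8 (−3.57 ± 0.65), Gsdmd (−3.38 ± 0.61, with 169.9, 60.2, 34.8 and 47.3 CPM, the first being 2 UMIs) and Casp4 (−2.50 ± 0.66, with 0, 12.6, 23.8 and 27.6 CPM), at adjusted p of 1.01e-05, 8.06e-06 and 0.00135. Nlrp6 stood at 0, 11.3, 12.7 and 7.89 CPM, or 19 UMIs in all. Pycard, at 84.9, 74.0, 58.6 and 82.9 CPM, and Casp1, at 84.9, 35.1, 76.0 and 63.1 CPM, are genes that immune cells are known to express, and lay within or near the enterocyte-like range. Their fitted differences were −0.90 ± 0.53 and −0.99 ± 0.48 (adjusted p = 0.14 and 0.0709). With scaling by total UMIs both were above 0, at 0.28 and 0.37 (adjusted p = 0.698 and 0.483), and Lypd8 (−2.29) and Gsdmd (−1.68) still passed while Casp4 (−0.77, adjusted p = 0.205) did not. Both were above the enterocyte-like level of the same mouse in 3 of 4 mice. With the mouse as a block, and without mouse 1, both passed as lower, and Casp1 also with DESeq2 and with its size factors.

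The scaling matters for these types since enterocyte-like sums had TMM factors of 0.196 to 0.647 and the others of 0.591 to 2.14. With TMM the median log2 difference over all genes was −0.36 in goblet-like, −0.31 in enteroendocrine-like, −0.18 in tuft-like and −0.09 in lymphocyte-like against enterocyte-like sums, and with total UMIs it was 0.44, 1.26, 1.01 and 1.36.

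**Figure D4:**
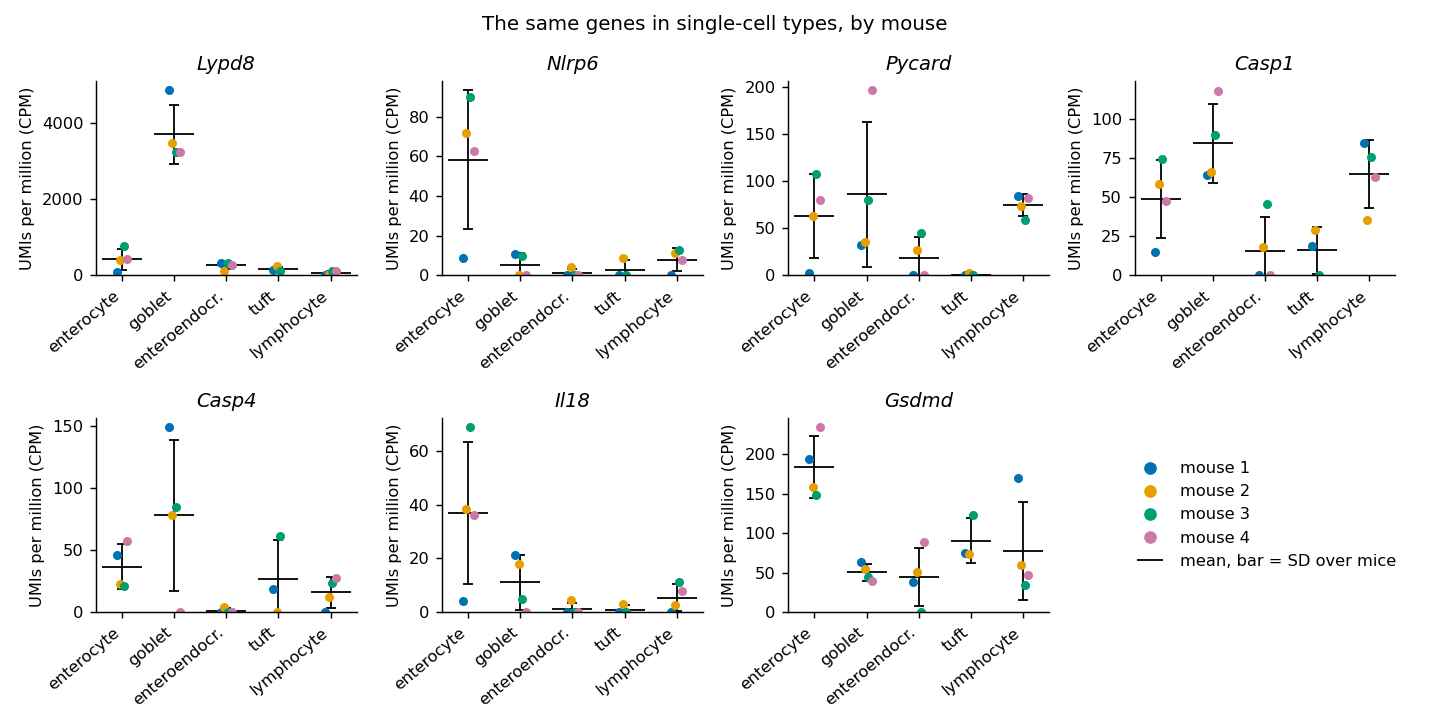
Levels in CPM (y axis, linear from 0, 1 scale per gene) in the sums of 5 single-cell types, with 1 point per mouse (mice 1 to 4, tuft-like mice 1 to 3) and the mean with its SD in black. Lypd8 in goblet-like cells, at 3228 to 4854 CPM, is above all other types, and Nlrp6 is plotted at or under 12.7 CPM outside enterocyte-like cells, where a 0 in a small sum allows up to 266 CPM.

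The rest of the pathway was read from a list of 38 other inflammasome genes, of which 34 were in the clump table and 16 passed the count filter. In tip against crypt clumps 9 of these 16 were higher and 4 lower, with a median of 1.12 against −0.07 over all genes tested, of which 54.4% passed. Those higher were sensors of other inflammasomes, such as Nlrp9b (5.30 ± 3.47 CPM in crypt and 105 ± 58.9 CPM at the tip, SD, n = 5), Naip5 (35.9 ± 14.0 and 119 ± 101 CPM, difference 2.19 ± 0.47), Naip1, Naip2, Naip6 and their partner Nlrc4 (1.74 ± 0.41), and also Casp8, an initiator caspase (1.91 ± 0.23), Gsdme, another gasdermin (1.90 ± 0.49), and the inhibitory receptor Sigirr (1.39 ± 0.43). Nlrp9b, with that crypt level, passed the count filter through the villus sums, so its levels are given without a test. Nothing is read from its place in the counts of this list.

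Those lower were Gsdmc, Gsdmc2 and Gsdmc4, close copies of 1 gasdermin (94.9 ± 17.0 CPM in crypt and 5.71 ± 6.01 CPM at the tip for Gsdmc4), and the executioner caspase Casp6 (112 ± 41.0 and 18.0 ± 12.3 CPM, difference −2.37 ± 0.39). Gsdmc4, with that tip level, passed the filter through the crypt sums, and its levels are likewise given without a test. The Naip genes and the Gsdmc genes are families of similar sequence whose reads may be shared between copies, so the split within each family is uncertain. Il33 and Dhx15, the RNA helicase that binds NLRP6, did not pass between tip and crypt, and Dhx15 was lower in mid-villus than in crypt clumps (−1.28 ± 0.38).

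Between mid-villus and crypt clumps 6 of the 16 were higher and 4 lower (background 42.5%), and between tip and mid-villus 2 were higher (Casp8 and Nlrp9b) and 1 lower (Casp6), a share near the background of 14.7%. In single enterocyte-like cells 11 of the list were tested, of which 7 were higher in tip-zone cells than in crypt-zone cells and 1, Casp6, was lower (background 59.0%). Casp6 differed there by −2.90 ± 0.31. Against enterocyte-like cells 7 were tested in each type, and 0 higher and 1 lower were found in goblet-like, 0 and 3 in enteroendocrine-like, 1 and 0 in tuft-like and 2 and 5 in lymphocyte-like sums, beside backgrounds of 21.2%, 33.4%, 24.1% and 57.4%.

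Of 24 other LY6/uPAR family genes, 19 were in the clump table and 1, Ly6e, passed the filter. Ly6e was at 98.8 ± 23.2 CPM in crypt, 29.5 ± 18.6 CPM in mid-villus and 29.6 ± 22.5 CPM in tip clumps, with differences from crypt of −1.78 ± 0.49 and −1.96 ± 0.59. In single cells it was higher in goblet-like (122 ± 75.2 CPM, n = 4) than in enterocyte-like sums (16 ± 7.61 CPM), by 2.35 ± 0.59, and also higher in lymphocyte-like sums (407 ± 64.5 CPM, n = 4). Ly6g6f was at 276 ± 132 CPM in tuft-like sums (n = 3) and had 0 UMIs in enterocyte-like and goblet-like sums, 2 UMIs in enteroendocrine-like and 4 UMIs in lymphocyte-like sums.

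The genes most like 3 of the members over the 15 clump sums, by Pearson's r of log2(CPM + 5) among 4791 genes that are no landmark and have a mean of at least 20 CPM, are given as a description, since the sums share mice and zones. Lypd8 was most like Mgst1, a microsomal glutathione transferase (r = 0.949, 313, 174 and 60.3 CPM in crypt, mid-villus and tip), Nfia (0.926) and Sec11c (0.917). The genes close to Nlrp6 included Dnajc19 (0.965) and Ndufb10 (0.963), and Il18 was most like Gm11930 (0.920), Gm14539 (0.912) and 2210407C18Rik (0.912). With Spearman's correlation, 2 of the 9 genes so chosen, Dnajc19 and Ndufb10, were named again.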

How the data were processed

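The authors sorted clumps and single cells into plates, prepared MARS-seq libraries, aligned reads to GRCm38 with zUMIs and STAR (bcl2fastq 2.15.0.4 in the submitters' processing notes) and counted with the strand of the library. They deposited whole-number UMI counts per gene and well, without normalization or background subtraction. The members and gene lists were chosen with earlier results of these data known.

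Wells with clumps needed 200 genes, more than 500 UMIs and a mitochondrial share of 30% or less, and of these the lowest 2% by landmark share were dropped. A zone was the landmark list that correlated best with the scaled landmark values of a clump. Wells with cells needed 200 to 7000 UMIs, between 150 and 1500 genes and a mitochondrial share of 40% or less, and were clustered with scanpy 1.11.5 (Leiden, python-igraph 0.11.9, resolution 0.1) without the members or pathway genes. Clusters were named by whichever marker list had most of the 50 leading genes (3 or more), and stayed unnamed where another list led the top 10. No doublet caller was run.

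UMI counts were summed per mouse and group (at least 5 wells) and tested with edgeR 4.0.16 (quasi-likelihood, TMM, filterByExpr) over all genes, at an adjusted p of 0.05. Same-numbered plates of 1 table were counted as 1 animal, which the labels leave unsaid for the 3 plates of single-cell mouse 2 labelled 4 months. Deviations of the sums from group means were compared between groups. Within the same mouse they correlated at 0.178 to 0.566 in clumps, 0.103 to 0.438 in zones of cells and −0.027 to 0.523 in cell types. Between different mice they correlated at −0.276 to 0.199, −0.385 to 0.198 and −0.521 to 0.502. The fit was tested on simulated data. Named were the 7 members, listed pathway genes that passed in a zone comparison with up to 3 more per list, and the 3 genes most like Lypd8, Nlrp6 and Il18. Some genes that this rule takes in are not reported here. Alternatives were DESeq2 1.42.0, its size factors, total scaling (added after seeing the data), no filter, a block for the mouse, leaving out single mice, other filters and zone rules.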

Additional observations from a re-analysis of the deposited data

Results flagged for a closer look

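Values of 1 mouse far from the others of its group were looked for in 63 groups of 4 or 5 mice, and 6 were found. Chance alone flags about 1 in 20 groups where values are normally spread, which does not hold for sums with 0 UMIs. Pycard in crypt clumps was lowest in mouse 5, at 591 CPM, with the nearest other mouse at 847 CPM. Lypd8 in goblet-like cells was highest in mouse 1, at 4854 CPM, with the nearest at 3479.9 CPM. Nlrp6 in mid-villus enterocyte-like cells was lowest in mouse 1, at 68.0 CPM or 8 UMIs, with the nearest at 101 CPM. Casp4, Il18 and Nlrp6 in enteroendocrine-like cells were each highest in mouse 2, at 4.47 CPM or 2 UMIs, where the other 3 mice had 0 UMIs in much smaller sums. With the other 3 mice at 0, any UMI in mouse 2 gives such a flag.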

How the results depend on the processing

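Of the values for single members, 716 kept direction and side of the threshold under an alternative, 51 lost the call, 19 gained it and 25 changed sign, all of these without a call. The number of members called between villus tip and mid-villus clumps, 3, became 5 with the mouse as a replicate block and 0 where zones were given by the largest sum, and lay between 2 and 5 with 1 mouse left out. The block changed no other count by over 1.5 times. Scaling by total UMIs took the calls in enteroendocrine-like cells from 6 to 3 and in tuft-like cells from 6 to 2, and leaving out 1 mouse gave 1 to 7 and 0 to 7 calls, and 2 to 7 in lymphocyte-like cells. These counts take in Nlrp6, which passed the filter through the enterocyte-like sums, and other members given above as counts only, and nothing is read from them. The highest mean of Lypd8 along the axis was 2286 CPM with 3 parts, and 2 of 9 most similar genes were shared with Spearman's correlation. The cause of these changes was not tested.

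The sign of Il18 between mid-villus and crypt clumps (log2 0.11) was reversed with DESeq2 size factors (−0.185), total scaling (−0.076), DESeq2 (−0.204), background subtracted (−0.066), pairs only (−0.091) and without clumps with other types (−0.056), with −0.364 to 0.312 over left-out mice. Casp4 between tip and mid-villus clumps (0.05) became −0.165 with total scaling, −0.059 without the filter and −0.123 over 1000 UMIs (−0.09 to 0.215 over left-out mice). Casp1 between mid-villus and crypt was −0.436 to 0.047 over left-out mice in clumps and −0.391 to 0.049 in single cells, there also 0.019 without the filter. Gsdmd between tip and mid-villus single cells became −0.248 with total scaling. Against enterocyte-like cells, Casp1 in goblet-like cells became 0.275 with DESeq2 size factors, 0.704 with total scaling and 0.273 with DESeq2 (−0.134 to 0.134 over left-out mice) and Pycard 0.082 with total scaling, and in lymphocyte-like cells Casp1 became 0.371 and Pycard 0.279. Tip sums of 76801 UMIs and type sums of 11299 UMIs limit what 1 mouse can show. Without the filter on low counts, 2.42% to 31.3% of all genes passed over the 10 comparisons.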

Other observations

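Clumps above 2n of mouse 6, from 4 plates and 244 zoned clumps, were kept out of the comparisons and have no replicate. Lypd8 was there at 2000.4 CPM in crypt, 1775 in mid-villus and 758 in villus tip clumps, Nlrp6 at 155, 90.8 and 0, Pycard at 528, 93.6 and 6.65, Casp1 at 124, 110.1 and 26.6, Casp4 at 34.3, 52.3 and 53.2, Il18 at 100, 102 and 13.3, and Gsdmd at 77.6, 281 and 266 CPM. The tip values rest on 0 UMIs for Nlrp6, which allow up to 20.0 CPM, 1 for Pycard, 2 for Il18, 4 for Casp1 and 8 for Casp4. Between crypt and tip, each of the 7 members lay in this mouse in the direction of its fitted difference in mice 1 to 5. With mouse 6 added, 7 members passed between tip and crypt.

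An unnamed cluster of 409 single cells, led by hemoglobin and immunoglobulin genes and with some myeloid markers, held Pycard at 67.8, 38.0, 82.6 and 95.3 CPM and Casp1 at 122, 53.2, 23.9 and 44.0 CPM in mice 1 to 4. Lypd8 was there at 0, 22.8, 71.8 and 36.7 CPM, below the enterocyte-like level of the same mouse in each of the 4, and Nlrp6 had 4 UMIs in all.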
